A study of Mus musculus with 2 samples.

Results

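The 4 microRNAs (miRNAs, short RNAs that pair with messenger RNAs and repress them) described here are miR-127-3p, miR-134-5p, miR-136-5p and miR-154-5p, all encoded at the imprinted Dlk1-Dio3 locus on mouse chromosome 12. They are 4 of 3200 rows in a table of normalized intensities from 3D-Gene mouse miRNA chips, and were chosen by the identifiers MIMAT0000139, MIMAT0000146, MIMAT0000148 and MIMAT0000164, not by their values. Earlier results of these data were known when they were chosen. Striatum of 10-week-old male mice was hybridised on 2 arrays, 1 labelled R6/2 and 1 labelled wild-type. R6/2 mice carry a human huntingtin transgene, its first exon with an expanded CAG repeat behind the human promoter, and serve as a model of Huntington's disease. The wild-type group has no genotype given beyond Wt, and neither strain background nor the number of animals behind an array is given in the sources used here. Per the labels, both groups shared the same extraction with TRIzol and the same single dye, Hy5.

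The row names limit what can be said of identity. The identifiers of the table go up by exactly 1 at each of its 3199 steps, whereas miRBase numbers are shared by many species. The 4 names follow the miRBase numbering of mature mouse miRNAs, which was used only for the 45 rows from MIMAT0000121 to MIMAT0000165. No table used here pairs these identifiers with names, so whether each row holds the miRNA its identifier names was not tested. Of these 45 rows, 44 had a value on both arrays, against 1325 of the 1855 later rows up to the last filled one. The median R6/2 intensity was 521 in the 45 rows and 23.9 in the later ones. Neuronal, immune, vessel and muscle marker miRNAs were not looked up, because the rule set for them required such a table. The label striatum was therefore not checked against markers. The other miRNAs of the locus were not given values either.

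The Dlk1-Dio3 locus is imprinted: Dlk1, Rtl1 and Dio3 are expressed from the paternal chromosome, and the long noncoding RNAs Meg3, Rian and Mirg, together with the miRNA hairpins, from the maternal one. In mouse, miR-127 and miR-136 are transcribed antisense to the retrotransposon-like gene Rtl1, with full complementarity to its messenger RNA. miR-134 and miR-154 belong to the large distal cluster that runs from miR-379 to miR-410. In rat neurons that cluster is induced by activity through Mef2, and miR-134 represses Limk1 and limits the size of dendritic spines.

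The mature sequences are shown because the seed, bases 2 to 8 from the 5′ end, largely sets which messenger RNAs a miRNA pairs with. They are RefSeq entries for build GRCm38.p6, matched by name for 4 of 4 members, 5′ to 3′, with the seed in capitals.
miR-127-3p: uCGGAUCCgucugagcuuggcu
miR-134-5p: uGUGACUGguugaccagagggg
miR-136-5p: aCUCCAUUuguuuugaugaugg
miR-154-5p: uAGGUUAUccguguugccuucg
All 4 are 22 bases long and lie on the plus strand of chromosome 12, at chr12:109592888-109592909, chr12:109734145-109734166, chr12:109595331-109595352 and chr12:109738438-109738459 in the order printed. No seed was shared: at most 3 of the 7 seed bases were equal at the same position between any pair, and 0 other mature miRNAs among the 1679 names in the RefSeq table held any of the 4 seeds. Of the 22 bases, 13 were G or C in miR-127-3p and in miR-134-5p, 11 in miR-154-5p and 8 in miR-136-5p.

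The hairpin precursors show which arm each row stands for. Here the mature miRNA is in capitals.
Mir127: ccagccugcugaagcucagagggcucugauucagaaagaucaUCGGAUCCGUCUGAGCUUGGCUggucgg
Mir134: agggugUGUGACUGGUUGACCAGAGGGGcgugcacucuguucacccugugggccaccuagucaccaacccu
Mir136: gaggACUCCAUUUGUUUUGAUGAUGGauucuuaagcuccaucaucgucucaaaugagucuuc
Mir154: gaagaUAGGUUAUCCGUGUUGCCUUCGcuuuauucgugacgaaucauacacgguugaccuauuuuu
miR-127-3p comes from the 3′ arm and the other 3 from the 5′ arm. The predicted folding energies were -35.1 kcal/mol for Mir127, -34.4 for Mir134, -28.2 for Mir136 and -25.2 for Mir154. In the predicted structures, 20 of the 22 mature bases of miR-127-3p were paired, 18 in miR-136-5p, and 17 each in miR-134-5p and miR-154-5p.

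The RefSeq table placed 58 miRNA hairpins with 108 mature names between the start of Dlk1 and the end of Dio3, 54 of them on the plus strand. The members fell into 2 close pairs. Mir127 (chr12:109592846-109592915) and Mir136 (chr12:109595327-109595388) started 2.48 kb apart, and both lay within the annotated span of Rtl1 (chr12:109564900-109604418), as did 15 of the 58 hairpins. Mir134 (chr12:109734139-109734209) and Mir154 (chr12:109738433-109738498) started 4.29 kb apart, about 139 kb further along from Mir136. Mir154 lay within the span of Mirg (chr12:109734981-109749458), and Mir134 ended 772 bases before its annotated start.

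**Figure D1:**
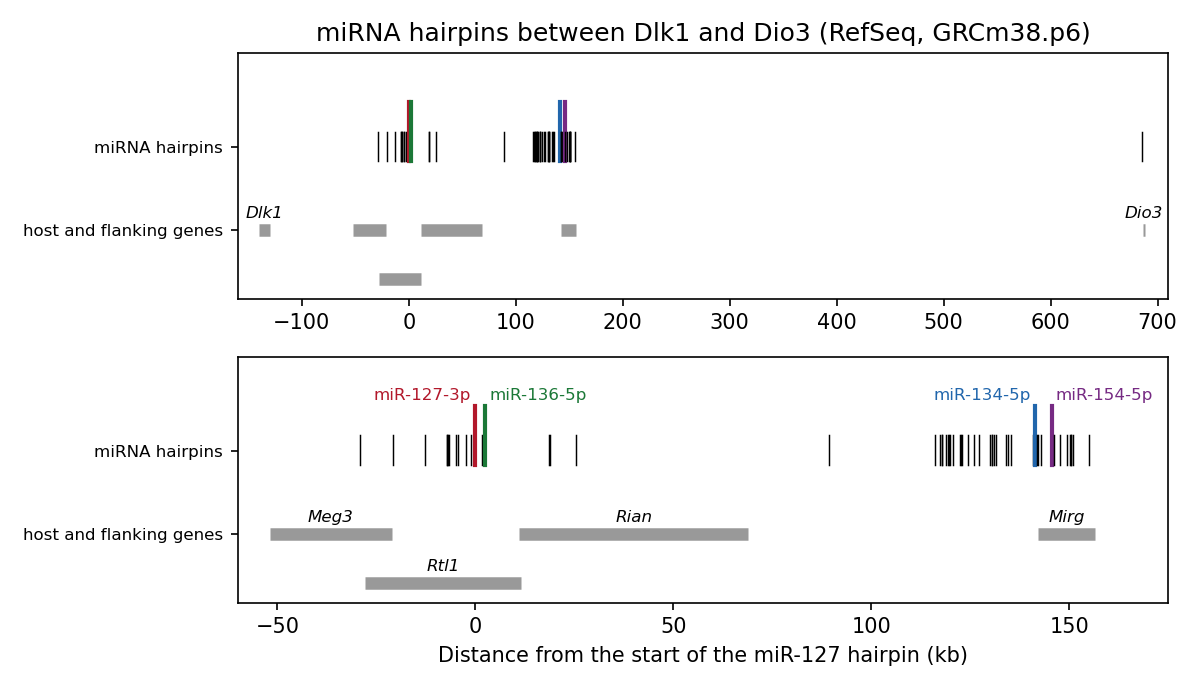
Position of miRNA hairpins (vertical lines) and of gene spans (grey bars) along chromosome 12, in kb from the start of the Mir127 hairpin, with the whole region above and an enlarged part below. Taller coloured lines mark the 4 members, which sit in 2 close pairs, Mir127 with Mir136 and Mir134 with Mir154; black lines are the other hairpins.

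Sequence likeness bears on what a probe could also bind. The mature mouse miRNA nearest to miR-154-5p differed from it by 5 edits (substitutions, insertions or deletions), and this distance was shared by miR-487b-5p and miR-494-5p, both from the same locus. The nearest to miR-136-5p was miR-3071-5p at 6 edits. These neighbours are printed with their own seeds in capitals.
miR-487b-5p: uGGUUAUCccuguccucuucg
miR-494-5p: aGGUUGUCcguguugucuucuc
miR-3071-5p: aCUCAUUUgagacgaugaugga
The seed of miR-487b-5p is found in miR-154-5p from base 3 onward, shifted by 1 base. Mir3071 (chr12:109595318-109595397) lies on the minus strand, and its hairpin covers all 62 bases of Mir136. The nearest to miR-134-5p was miR-6987-5p at 7 edits. For miR-127-3p the fewest edits were 8, reached by 5 miRNAs, namely miR-1906, miR-3080-5p, miR-700-5p, miR-7090-3p and miR-8116. The annotated positions of these 5 were on chromosomes 4, 5, 9, 12, 15 and X. Probe sequences were not used here, so whether any neighbour added to a member's intensity was not tested.

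The comparison of the 2 arrays addresses which striatal miRNAs differ between R6/2 and wild-type mice. All 4 members were detected on both arrays with a higher deposited intensity in R6/2. Of the 1369 rows filled on both arrays, 84.3% were likewise higher in R6/2. Relative to the median ratio of all these shared rows, the direction turned for miR-134-5p, miR-136-5p and miR-154-5p. No member reached a 1.5-fold difference, a limit that 21.5% of all shared rows passed upward and 1.53% downward. The highest was 1.43-fold for miR-127-3p and the other 3 lay between 1.09-fold and 1.17-fold. With 1 array per genotype there is no replicate error, no test was run, and genotype and array cannot be told apart. In bulk striatum, a change in the number of cells of a type and a change in RNA per cell cannot be told apart either.

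miR-127-3p, the Rtl1 antisense miRNA of the 3′ arm, measured 2942.9 units on the R6/2 array and 2060.7 on the wild-type array. It was among the brightest rows, at place 46 of 1650 filled rows in R6/2 and 52 of 1376 in wild-type. The log2 ratio, R6/2 divided by wild-type, came to 0.51, the largest of the 4.

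miR-136-5p, the second Rtl1 antisense miRNA, measured 524.8 units on the R6/2 array and 482.1 on the wild-type array. This was above 92.9% of the filled rows in R6/2 and 91.3% in wild-type. Its log2 ratio was 0.12, the smallest of the 4 on the deposited scale. Mir127 and Mir136 are the closest pair of member hairpins. Their miRNAs had the widest difference in log2 ratio among the 6 pairs, 0.39, a 1.31-fold difference between ratios. Under quantile normalization the widest difference was instead that between miR-127-3p and miR-134-5p. Among the brightest 136 rows, which hold both miR-127-3p and miR-136-5p, the 5th to 95th percentiles of the log2 ratio ran from -0.44 to 0.60.

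miR-154-5p, of the distal cluster, measured 371.0 units on the R6/2 array and 317.9 on the wild-type array, above 91.0% and 88.8% of the filled rows. Its log2 ratio was 0.22. miR-134-5p, which lies beside it on the chromosome and is the miRNA known for its action in dendrites, was the dimmest, at 52.5 units in R6/2 and 45.8 in wild-type. These values are 2.10 times the R6/2 array's median of 25 and 1.83 times the wild-type array's median, also 25. Its log2 ratio was 0.20 and differed from that of miR-154-5p by 0.03. Intensities of different probes depend on how each probe binds, so the order of the 4 on an array is not an order of abundance.

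**Figure D2:**
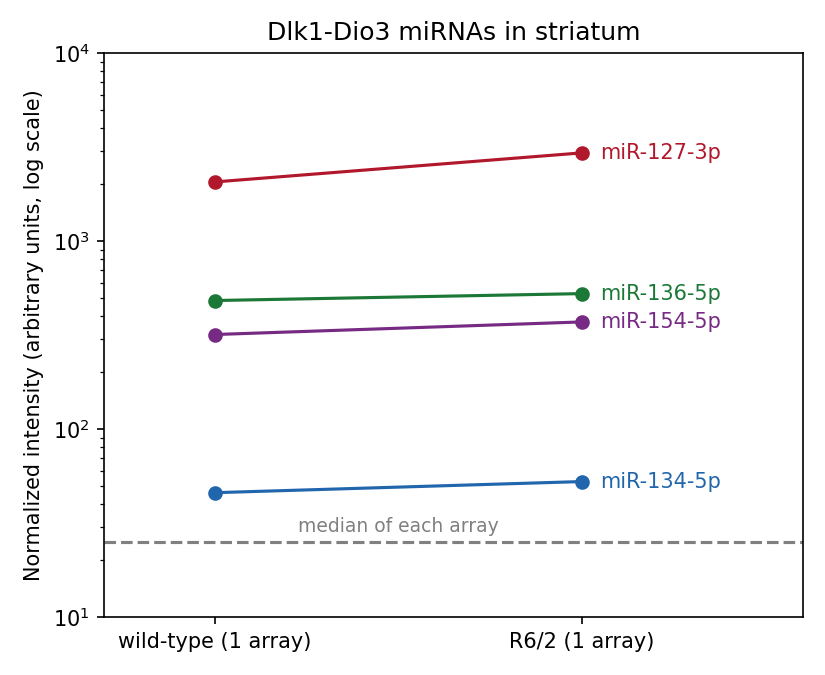
Normalized intensity (arbitrary units, log scale) of the 4 miRNAs on the wild-type and the R6/2 array, 1 point per array, with lines joining the points of 1 miRNA. On this deposited scale all 4 lines rise from wild-type to R6/2, as did 84.3% of the 1369 rows filled on both arrays. Relative to the median ratio of those rows, 3 of the 4 directions turn. The rise is from 2060.7 to 2942.9 for miR-127-3p and from 45.8 to 52.5 for miR-134-5p. The dashed line marks the median of 25 on either array.

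The shared direction is also that of most rows. All 4 members had a log2 ratio above 0, as did 84.3% of the 1369 rows filled on both arrays, whose median log2 ratio was 0.30. The median of the 4 members was 0.21. The array medians, both 25, were over different rows, 1650 filled in R6/2 and 1376 in wild-type. Whether this bears on the shared direction was not tested. As deposited, 0 of 4 members were at least 1.5-fold higher, where 21.5% of all rows were. In the other direction 0 of 4 passed 1.5-fold, where 1.53% of all rows did. Among the upper 50% of rows by mean intensity, which hold all 4 members, 10.1% passed 1.5-fold upward and 1.61% downward.

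Relative to the median ratio of all shared rows, 3 of the 4 members changed sign. The log2 ratio was then 0.21 for miR-127-3p, -0.08 for miR-154-5p, -0.11 for miR-134-5p and -0.18 for miR-136-5p. On this scale 1 of 4 members was above 0, and by construction as many of all shared rows lie above 0 as below. Among the upper rows by mean intensity, 685 of 1369, which hold all 4 members, 37.7% were above 0 and 62.3% below. Upward, 0 of 4 members and 9.42% of all rows passed 1.5-fold. Downward, 0 of 4 members and 5.41% of all rows did. Of the 685 upper rows, 4.23% passed 1.5-fold upward and 6.28% downward. The direction of the small differences of miR-134-5p, miR-136-5p and miR-154-5p therefore depended on the scale. Of 7 alternative scales, 5 turned the sign of miR-134-5p, 5 that of miR-136-5p and 1, the median ratio of all shared rows, that of miR-154-5p, which stayed above 0 under the other 6.

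The median log2 ratio was 0.22 in the brightest and 0.46 in the dimmest rows, so each member was also set beside rows of like intensity, in 10 equal classes of mean log2 intensity. miR-127-3p and miR-136-5p fell in the brightest class of 136 rows, whose median log2 ratio was 0.22 and whose 5th to 95th percentiles ran from -0.44 to 0.60. miR-127-3p lay above 89.0% of these 136 rows, 0.30 above their median or 1.20 times their robust SD (the scaled median absolute deviation). miR-136-5p lay above 33.1% of them and 0.10 below the median. Both were thus inside the central range of this brightest class. The class is wide, with mean log2 intensity from 8.66 to 16.9, against 11.3 for miR-127-3p and 8.97 for miR-136-5p. Its rows are therefore not closely matched in intensity to either.

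In the next class, of 137 rows, the median log2 ratio was 0.19 with 5th to 95th percentiles of -0.45 and 0.72, and miR-154-5p lay above 78 of its rows. miR-134-5p fell in the fourth class, where the median was 0.24 and the percentiles were -0.17 and 1.08, and lay above 54 of 137 rows. Against the other 40 rows of the identifier run from MIMAT0000121 that were filled on both arrays, whose median log2 ratio was 0.15 and whose range was -1.61 to 0.91, miR-127-3p lay above 34, miR-154-5p above 24, miR-134-5p above 22 and miR-136-5p above 17. Of those 40 rows 5 passed 1.5-fold upward and 3 downward as deposited.

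**Figure D3:**
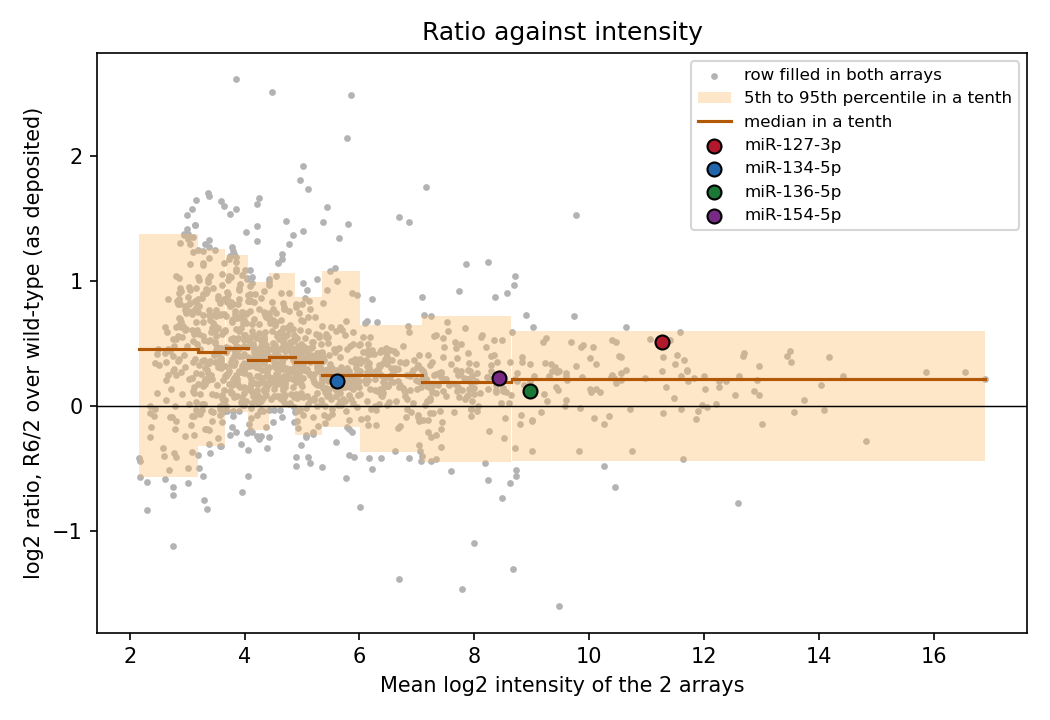
Log2 ratio of R6/2 over wild-type as deposited against the mean log2 intensity of the 2 arrays, with 1 grey point for each of the 1369 rows filled on both. Bars give the median and shaded boxes the 5th to 95th percentiles in 10 classes of equal size; the 4 coloured members lie inside the boxes of their classes, with miR-127-3p at 0.51 nearest to an upper edge, at 0.60.

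miR-127-3p had the highest ratio of the 4 under each of 8 scales tried, between 0.21 and 0.51, and its lead over the next member lay between 0.15 and 0.30. For the 3 alternatives that take 1 constant off every row this order follows by construction. Centring on rows of like intensity also takes the same 0.22 off miR-127-3p and miR-136-5p. Adding the lower quartile moved the ratio of miR-127-3p, a bright row, only from 0.514 to 0.511. The other 3 members lay within 0.18 of each other under every scale. Of these, miR-136-5p was lowest under 7 scales and miR-134-5p under quantile normalization.

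**Figure D4:**
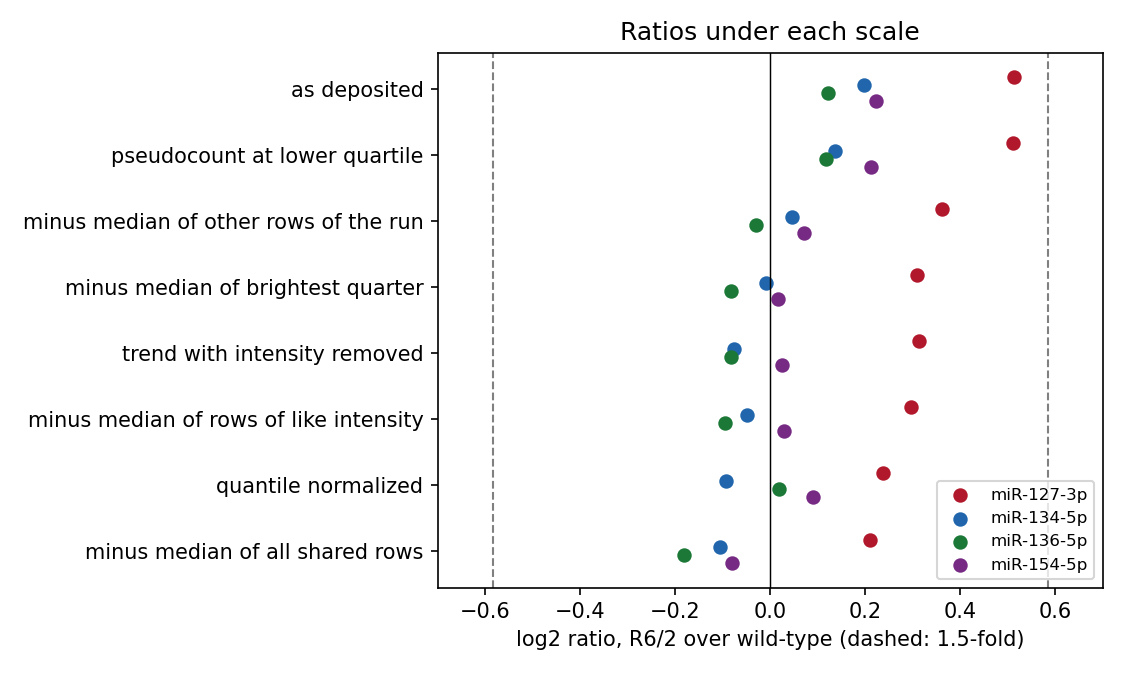
Log2 ratio of R6/2 over wild-type for the 4 miRNAs (points, 1 row of points per scale) as deposited and under 7 alternative scales, with dashed lines at a 1.5-fold difference. miR-127-3p is the rightmost point in each row, between 0.21 and 0.51, and no point passes a dashed line. The other 3 lie on either side of 0 in 5 of the 8 rows of points. As deposited, 21.5% of all rows passed 1.5-fold upward and 1.53% downward. Relative to the median ratio of all shared rows, 9.42% and 5.41% did.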

How the data were processed

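The deposited values are linear normalized intensities, 1 single-colour array per genotype. TRIzol extraction and Hy5 labelling of total RNA are stated per the labels' protocols. How background was corrected, values scaled and cells left blank was not given in the sources used here. Both arrays have a median of 25 across the cells that are filled. The members were taken by identifier, and they and the marker lists, which were not used, were chosen with earlier results of these data known.

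Log2 ratios of R6/2 over wild-type were computed for the 1369 rows filled on both arrays, with no pseudocount and no filter on low values. The number of arrays limits the precision, and no test was run. The rule for named miRNAs took the 4 members and, for each, the mature miRNAs with the fewest edits in the RefSeq table. Its other parts, the 2 rows nearest in intensity and the marker lists, were not applied because the reference tables do not pair identifiers with names. Alternatives were 3 constants for centring, quantile normalization, lowess (span 0.4), adding the array's lower quartile before the log and, added after seeing the data, centring on rows of like intensity. The ratio step was tested on simulated data with planted differences larger than that of any member. That test therefore does not bear on differences as small as theirs. Tools were Python 3.11.15, numpy 2.4.6, pandas 2.3.3, statsmodels 0.14.6, edlib 1.3.9.post1, RNAfold 2.7.2 and matplotlib 3.10.9.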

Additional observations from a re-analysis of the deposited data

How the results depend on the processing

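No paired analysis was possible because each genotype has 1 array, and no replicate could be left out. A log2 ratio was taken as moved at a change of 0.25 or more. Of 28 alternative values of the 4 members, 17 kept their sign, 2 of which moved, and 11 changed sign, 5 of which moved. No member reached 1.5-fold in either direction under any of the 7 alternatives. With centring on all shared rows, 9.42% of all rows passed 1.5-fold upward and 5.41% downward. For the other alternatives this share was not computed. Centring on all shared rows gave 0.21 for miR-127-3p, -0.11 for miR-134-5p, -0.18 for miR-136-5p, -0.081 for miR-154-5p and -0.094 for the median of the 4. Centring on the brightest 25% of rows gave -0.0085 for miR-134-5p and -0.083 for miR-136-5p, and centring on the other rows of the identifier run gave -0.029 for miR-136-5p. Quantile normalization gave 0.24 for miR-127-3p and -0.094 for miR-134-5p. Lowess gave -0.075 for miR-134-5p, -0.082 for miR-136-5p and -0.025 for the median. Centring on rows of like intensity gave -0.048 for miR-134-5p, -0.096 for miR-136-5p and -0.0095 for the median. Where centring turned the sign of a miRNA, the constant taken off was larger than the ratio; for quantile normalization and lowess the cause was not tested. The share of all rows at least 1.5-fold higher, 21.5%, was 10.1% in the upper 50% by intensity and 6.72% at 2-fold. The signal of miR-134-5p was 2.10 times the array median in R6/2 and 1.83 times in wild-type.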
